A study of Mus musculus with 24 samples.

Results

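The 44 collagen genes of the deposited mouse table are the subject here. They are the rows whose symbol reads Col, a number, a and a number, and they make up 44 of 19015 genes. The 24 RNA-seq libraries came from female mice, 12 weeks old, either knockout (KO) or wildtype (WT) at Prxl2a, a gene for a thioredoxin-like antioxidant protein. After PBS perfusion, 4 tissues were taken from 3 KO and 3 WT mice each: the inguinal fat pad (IAT), brown fat of the back (BAT), liver and brain. The labels give no strain, KO allele, deleted exon or driver line, and no treatment beyond the perfusion that both genotypes shared. Nothing in them says whether a replicate number marks the same mouse in different tissues. All p-values measure the spread between these libraries.

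Collagens are secreted proteins whose alpha chains wind into a rope-like helix built on glycine repeats. Fibrillar types give connective tissue its tensile strength, type IV forms the sheet of basement membranes, type VI forms beaded filaments around cells, fibril-associated types coat fibrils, and multiplexins carry endostatin-like domains at basement membranes. In fat and liver they come mostly from fibroblasts, adipocytes or stellate cells, and excess fibrillar collagen is the hallmark of fibrosis. In the central nervous system fibrillar collagen is scarce outside the meninges and vessels, while neurons make several transmembrane and fibril-associated types.

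The label check came first. Levels are in TPM, a length-normalised share of transcripts within a library. Prxl2a had 11.3, 24.4 and 18.6 TPM in KO IAT, against 554, 382 and 349.5 TPM in WT IAT. It had 21.2, 24.2 and 17.97 TPM in KO BAT, against 494, 513 and 525 TPM in WT BAT. The KO libraries were the low ones in both fat depots. In brain it had 9.36, 9.56 and 11.4 TPM in KO brain, against 195, 146 and 212 TPM in WT brain. In liver it had 1.72, 0.99 and 2.24 TPM in KO liver, against 91.8, 85.7 and 75.3 TPM in WT liver. KO libraries lay below WT libraries in every tissue, and the fall passed the edgeR test in BAT, brain and liver with adjusted p of 1.09e-05, 0.000131 and 1.08e-05, while IAT gave an adjusted p of 0.0912 with all 6 libraries and 0.669 without KO replicate 3. Library totals ran from 12327459 to 18257788 expected counts. Marker genes matched the tissue labels. Summed adipocyte markers reached 32688 to 91776 TPM in IAT, brown adipocyte markers 20579 to 26332 TPM in BAT, neuron markers 6386 to 8065 TPM in brain and hepatocyte markers 123347 to 153851 TPM in liver. Some libraries carried transcripts of other tissues. KO replicates 1 and 3 of IAT held 2272 and 1138 TPM of 12 lymphocyte markers, with 5.11 TPM in KO replicate 2 and 10.5 to 18.8 TPM in WT IAT. KO replicate 3 of IAT lay at the midpoint of KO replicates 1 and 2. Over the 803 genes that averaged over 5 TPM in KO IAT and differed more than 4-fold between replicates 1 and 2, its TPM stood at a median of 0.499 of the way from replicate 2 to replicate 1, and most of these genes lay near that point, with low and high deciles of 0.448 and 0.56. Its chi-square per gene against the midpoint of their counts was 1.95, where 10.6 was the lowest value of any other library against any pair of libraries of its tissue. The labels do not describe it as a pool, and what it shares with both libraries was not tested. It is not taken here as an independent sample, so the IAT SEs and p-values from all 6 libraries are too small, and IAT results are also given without it. Skeletal muscle markers summed to 1708 and 6302 TPM in WT replicates 1 and 2 of IAT and to 2524 TPM in WT replicate 1 of BAT. The other IAT libraries held 9.35 to 51.2 TPM and the other BAT libraries 3.75 to 142 TPM. Choroid plexus markers in brain ranged from 16.8 TPM in KO replicate 2 to 2206 TPM in WT replicate 3. In bulk tissue, fewer collagen-making cells and less collagen RNA per cell cannot be told apart.

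In WT mice each tissue had its own collagen profile. IAT was led by fibrillar chains and liver by a single multiplexin chain, while brain carried a wide set of chains at low levels. A total of 30 collagen genes averaged at least 1 TPM in WT IAT, 32 in brain, 24 in BAT and 16 in liver, and 14 did so in all 4 tissues. Of the 39 genes that reached 1 TPM in some WT tissue, 21 had their highest mean TPM in IAT, 15 in brain, 2 in BAT and 1 in liver. The order can differ in CPM, counts scaled to library size, on which the edgeR tests rest. Col12a1 averaged 5.37 TPM in WT brain and 3.92 TPM in WT BAT, but 18.2 and 32.4 CPM. The edgeR F-test over the 12 WT libraries called all 42 collagen genes tested, where 96.1% of all genes tested were called.

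The major fibrillar chains were highest in IAT. Col3a1, the chain of type III collagen in reticular fibres, averaged 979.9 ± 385 TPM in WT IAT, 89.5 ± 21.6 TPM in BAT, 0.867 ± 0.454 TPM in brain and 11.0 ± 3.83 TPM in liver (SD, n = 3 each). Its order was IAT, BAT, liver and brain, and every neighbouring pair differed, with edgeR adjusted p of 7.06e-05 for IAT over BAT, 0.000248 for BAT over liver and 4.34e-07 for liver over brain. Col1a2, which with Col1a1 builds type I collagen, averaged 531 ± 214 TPM in WT IAT and 46.1 ± 14.6 TPM in BAT (SD, n = 3 each). Chains of the minor fibrillar types V and XI were split between tissues. Col5a1, Col5a2 and Col5a3 averaged 58.7, 70.5 and 66.9 TPM in WT IAT, while Col11a1 and Col11a2 averaged 7.55 and 10.1 TPM in WT brain and 0.807 and 0.937 TPM in WT IAT. Col27a1, a fibrillar collagen known from cartilage, averaged 12.7 ± 2.80 TPM in WT BAT and 9.82 ± 3.88 TPM in WT liver (SD, n = 3 each). In CPM liver was the higher of this pair. The log2 difference in CPM of BAT against liver was -0.36 and did not pass (edgeR adjusted p = 0.316).

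Col4a1 and Col4a2, the chains of most basement membranes, averaged 212 and 135 TPM in WT IAT and 21.96 and 28.7 TPM in WT brain. Type VI chains Col6a1, Col6a2 and Col6a3 averaged 172, 141 and 90.0 TPM in WT IAT. Brain differed in its type VI make-up, with Col6a1 at 82.3 ± 50.2 TPM and Col6a3 at 1.26 ± 0.631 TPM in WT brain (SD, n = 3 each). Some chains that lie on fibrils or span membranes were highest in brain. Col19a1, a fibril-associated chain made by interneurons, averaged 11.9 ± 1.32 TPM in WT brain and at most 0.04 TPM elsewhere. Col25a1, the neuronal membrane collagen first found in amyloid plaques, averaged 26.3 ± 6.46 TPM in WT brain and at most 0.07 TPM elsewhere (SD, n = 3 each). Liver was set apart by Col18a1, the source of endostatin and a product of hepatocytes. Col18a1 averaged 179.6 ± 4.72 TPM in WT liver, 39.3 ± 4.70 TPM in IAT, 5.96 ± 1.5 TPM in BAT and 2.19 ± 0.837 TPM in brain (SD, n = 3 each). Liver exceeded IAT for Col18a1 with an adjusted p of 3.37e-07 in edgeR.

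Pairwise tests among WT tissues, on scaled counts and not on TPM, were then counted over the family. IAT exceeded BAT for 26 of 42 collagen genes and was lower for 6, where 30.2% and 26.7% of all genes were called in those directions. IAT exceeded brain for 23 genes and was lower for 15, where the shares over all genes were 39.9% and 40.1%. IAT exceeded liver for 29 genes and was lower for 4, against 37.7% and 32% of all genes. BAT exceeded brain for 20 and was lower for 14 (38.7% and 40.5% of all genes), and BAT exceeded liver for 24 and was lower for 7 (36% and 29.7%). Brain exceeded liver for 22 and was lower for 13 (42.7% and 39.5%).

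**Figure D1:**
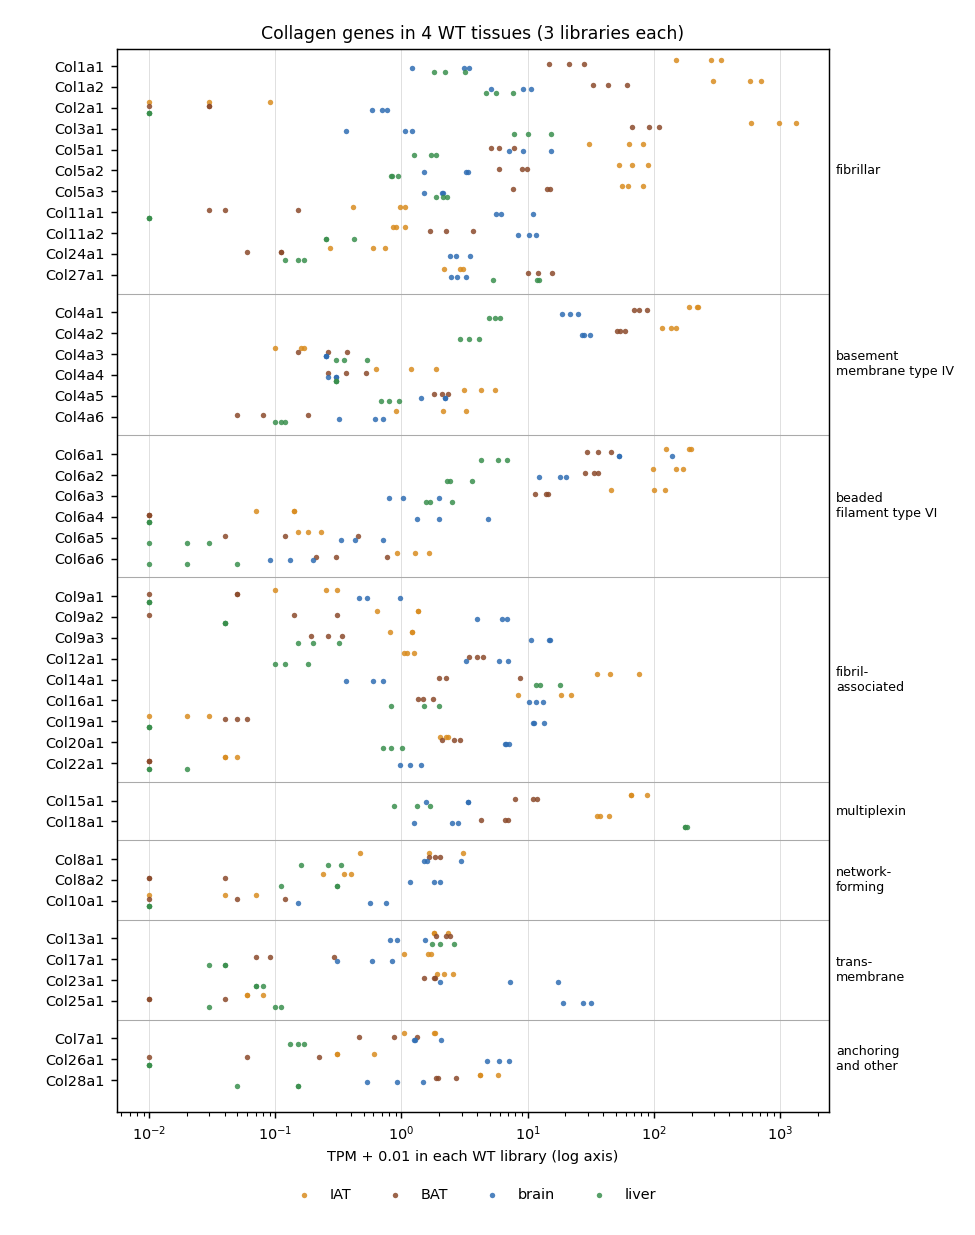
TPM plus 0.01 of each collagen gene in every WT library on a log axis, with 3 points per tissue and genes grouped by structural class. Col3a1 is the highest point set in IAT at 588 to 1359 TPM, Col18a1 stands alone in liver at 176 to 185 TPM, and Col19a1 and Col25a1 are near 0 outside brain.

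Partner chains that share a trimer or a locus were compared as TPM ratios. The TPM ratio of Col1a1 to Col1a2 was 0.475, 0.518 and 0.509 in the KO IAT libraries and averaged 0.491 ± 0.0166 in WT IAT, and it averaged 0.279 ± 0.0536 in KO brain and 0.30 ± 0.0669 in WT brain (SD, n = 3 each). The ratio of Col4a1 to Col4a2 averaged 1.56 ± 0.0316 in KO BAT and 1.43 ± 0.0751 in WT BAT, and 0.789 ± 0.0530 in KO brain and 0.762 ± 0.0533 in WT brain (SD, n = 3 each). Col4a1 exceeded Col4a2 in every BAT library and was below it in every brain library. These 2 genes lie head to head on chromosome 8, and since it is not stated whether counting used strand, reads in their short overlap cannot be told apart. The ratio of Col6a1 to Col6a2 was 1.07 ± 0.0604 in KO BAT and 1.13 ± 0.126 in WT BAT, and 3.64 ± 0.338 in KO brain and 4.72 ± 2.0 in WT brain (SD, n = 3 each).

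In BAT most collagen genes had lower values in KO, though none passed the test alone. Of the 28 collagen genes that passed the filter on low counts there and were tested, 23 had a lower mean in KO, and 15 had every KO library below every WT library. None had every KO library above every WT library. Of all 12588 genes tested, 51% had a lower mean, 11.3% had all KO below all WT and 14.3% had all KO above all WT. The median collagen log2 difference in CPM, counts scaled to library size, was -0.51 in KO against WT, beside -0.01 over all genes. With edgeR 0 collagen genes passed at an adjusted p under 0.05, where 0.54% of all genes did. At an unadjusted p under 0.05, 16 were lower and 0 higher, where 8.6% and 9.91% of all genes were. DESeq2 called 8 collagen genes, and 3.68% of all genes. By class, 7 of 8 fibrillar, 5 of 5 type IV, 4 of 4 type VI, 3 of 4 fibril-associated and 2 of 2 multiplexin genes tested had lower means. So did 1 of 1 network-forming, 1 of 2 transmembrane and 0 of 2 anchoring and other genes.

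Type I and type III chains lay well apart between genotypes in BAT. Col3a1 had 37.9, 35.5 and 45.99 TPM in KO BAT, against 110.0, 67.03 and 91.5 TPM in WT BAT. Col1a2 had 22.2, 18.96 and 21.8 TPM in KO BAT, against 61.7, 32.8 and 43.8 TPM in WT BAT. Col1a1 had 8.42, 7.75 and 11.4 TPM in KO BAT, against 27.9, 14.8 and 21.2 TPM in WT BAT. All KO libraries lay below all WT libraries for each of these 3 genes, and KO libraries were closer to each other than WT libraries were. The log2 differences in CPM were -1.06 (SE 0.18, edgeR adjusted p = 0.0614) for Col3a1, -1.03 (SE 0.20, edgeR adjusted p = 0.0786) for Col1a2 and -1.11 (SE 0.24, edgeR adjusted p = 0.0922) for Col1a1. Type V followed with smaller gaps, at -0.70 for Col5a1, -0.59 for Col5a2 and -0.75 for Col5a3, none of which passed the edgeR test (adjusted p = 0.135, 0.155 and 0.177).

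Type VI and multiplexin genes also had lower means in KO BAT, and none passed. Col6a3, the large type VI chain that adipose tissue processes to endotrophin, had 8.30, 8.91 and 8.15 TPM in KO BAT, against 14.5, 11.6 and 13.9 TPM in WT BAT. Its log2 difference in CPM was -0.56 (SE 0.10, edgeR adjusted p = 0.0668), and the groups did not overlap. Col6a1 had 24.1, 25.8 and 25.3 TPM in KO BAT, against 45.9, 29.8 and 36.1 TPM in WT BAT, again without overlap, with a log2 difference in CPM of -0.47 (SE 0.14, edgeR adjusted p = 0.172). Col15a1, a multiplexin that links basement membrane to fibrils, had 5.55, 5.19 and 6.14 TPM in KO BAT, against 11.9, 7.94 and 11.1 TPM in WT BAT. Col15a1 was lower in each KO library than in any WT library, with a log2 difference in CPM of -0.75 (SE 0.15, edgeR adjusted p = 0.0820). Col18a1 had 3.94, 2.87 and 2.24 TPM in KO BAT, against 6.59, 4.25 and 7.05 TPM in WT BAT and a log2 difference in CPM of -0.93 (SE 0.23, edgeR adjusted p = 0.128); it overlaps Slc19a1 on the opposite strand, so part of its reads cannot be assigned to strand.

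The major basement membrane chains lay closer together. Col4a1 had 66.8, 71.1 and 67.05 TPM in KO BAT, against 76.98, 69.8 and 88.8 TPM in WT BAT, and the groups overlapped, with a log2 difference in CPM of -0.10 (SE 0.10, edgeR adjusted p = 0.606). Col4a2 had 43.5, 46.1 and 42.1 TPM in KO BAT, against 53.9, 51.4 and 58.9 TPM in WT BAT. Its KO libraries were the lower ones without overlap, at a log2 difference in CPM of -0.22 (SE 0.08, edgeR adjusted p = 0.231). The balance between classes is given as shares. Fibrillar chains made up 32.7% ± 2.06 of collagen TPM in KO BAT and 43.2% ± 3.60 in WT BAT, while type IV made up 38.8% ± 1.92 in KO BAT and 30.1% ± 3.71 in WT BAT (SD, n = 3 each). Both shares separated the groups without overlap, at the smallest p that 3 against 3 allows (exact permutation test, two-sided, p = 0.1, adjusted p = 0.36 over 72 comparisons). Summed collagen TPM averaged 295 ± 4.99 in KO BAT and 457 ± 71.7 in WT BAT (SD, n = 3 each). Both classes were lower in KO as sums, so the larger share of type IV was not a higher level. Type IV summed to 114 ± 4.57 TPM in KO BAT and 136 ± 13.7 TPM in WT BAT. Fibrillar chains summed to 96.5 ± 7.47 TPM in KO BAT and 199 ± 46.5 TPM in WT BAT (SD, n = 3 each).

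**Figure D2:**
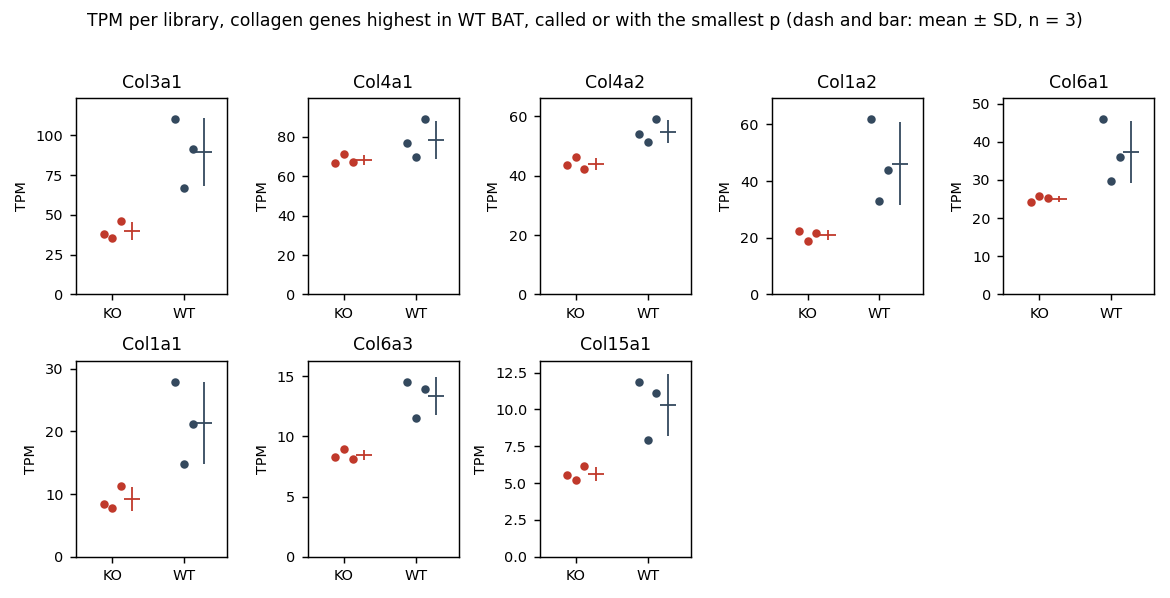
TPM in each BAT library of the 8 collagen genes with the highest WT mean or the smallest p, KO left and WT right, with the mean and SD beside the points. Among these 8, KO points lie below WT points without overlap except for Col4a1, and Col3a1 runs from 35.5 to 46.0 TPM in KO BAT and from 67.0 to 110.0 TPM in WT BAT.

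Markers of other cells were lower beside the BAT collagens. All 10 of 10 fibroblast markers tested had a lower mean in KO, with a median log2 difference of -0.69 and a summed level of 251 to 315 TPM in KO BAT against 335 to 744 TPM in WT BAT. All 10 of 10 macrophage markers were also lower (median -0.51), with sums of 175 to 235 TPM in KO BAT and 196 to 599 TPM in WT BAT. WT replicate 1, the library with muscle transcripts, was the highest in both sums. Pericyte and endothelial marker medians were -0.04 and -0.06. Brown adipocyte markers had a median of 0.31 with 1 of 8 lower, and the defining genes of none of these lists were at 0 in all libraries. Without WT replicate 1, 16 of 28 collagen genes still had every KO library below every WT library, where 17.7% of all genes did, the count lower in KO was 25, and the median was -0.32. The part of these cells in the collagen difference was not tested.

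Upstream sequence is shown for the collagen genes with the smallest p in BAT that have an entry in the RefSeq promoter table for GRCm38.p6, since their KO levels lay below WT levels together. Each line gives the 250 bases before the start that the table lists, 5′ to 3′ on the gene's strand, with matches to CCAAT (the box bound by NF-Y), GGGCGG (the GC box bound by Sp factors) and TATAAA (the TATA box) in capitals. The listed start is that of the gene for Col1a2 and Col3a1, but lies 30 bases inside the annotated gene for Col6a3 and 357 bases inside it for Col15a1, so the Col15a1 window lies within the gene.
Col1a2 (chr6:4505368-4505617, plus strand): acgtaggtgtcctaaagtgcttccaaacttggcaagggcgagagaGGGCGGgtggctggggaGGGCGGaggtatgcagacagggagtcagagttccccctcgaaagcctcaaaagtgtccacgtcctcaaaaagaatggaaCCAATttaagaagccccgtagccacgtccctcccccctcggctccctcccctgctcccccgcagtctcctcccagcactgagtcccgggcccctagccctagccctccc
Col3a1 (chr1:45311288-45311537, plus strand): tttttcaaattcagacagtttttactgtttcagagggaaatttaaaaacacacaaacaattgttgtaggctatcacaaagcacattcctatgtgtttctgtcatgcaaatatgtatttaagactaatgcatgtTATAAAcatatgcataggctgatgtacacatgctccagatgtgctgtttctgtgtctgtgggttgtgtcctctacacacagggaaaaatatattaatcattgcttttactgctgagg
Col6a3 (chr1:90843972-90844221, minus strand): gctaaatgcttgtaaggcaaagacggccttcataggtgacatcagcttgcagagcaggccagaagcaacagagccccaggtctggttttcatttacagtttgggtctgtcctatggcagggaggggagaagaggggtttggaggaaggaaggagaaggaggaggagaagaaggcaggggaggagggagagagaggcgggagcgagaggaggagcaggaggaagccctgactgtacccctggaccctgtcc
Col15a1 (chr4:47207762-47208011, plus strand): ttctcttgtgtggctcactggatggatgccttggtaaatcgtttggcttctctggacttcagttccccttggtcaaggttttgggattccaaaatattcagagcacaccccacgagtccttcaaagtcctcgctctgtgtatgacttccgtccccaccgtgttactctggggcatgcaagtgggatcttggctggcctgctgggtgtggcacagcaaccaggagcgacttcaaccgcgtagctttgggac
The Col1a2 window, 62.0% G or C, holds CCAAT once, at bases 105 to 109 before the start, and GGGCGG at bases 183 to 188 and 200 to 205. The Col3a1 window, 35.2% G or C, holds TATAAA at bases 112 to 117. The Col6a3 and Col15a1 windows hold none of the searched letters on either strand. No motif overlaps another in these windows. Among 32851 mouse windows of this length, 33.8% hold CCAAT, 32.7% GGGCGG and 12.4% TATAAA on either strand. Over the 38 collagen windows in the table, which belong to 35 genes, the shares were 34.2%, 57.9% and 13.2%. A match is a description of letters and not of a bound site.

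Liver was the tissue in which collagen genes passed the test. Col1a1 and Col4a3 fell in KO liver, which is 2 of the 26 collagen genes that passed the filter on low counts, where 1.11% of all 12331 genes were called and 0.535% were called lower. The median collagen log2 difference in CPM was -0.61 in KO against WT, beside a median near 0 over all genes. A total of 21 of 26 had a lower mean in KO, where 51% of all genes did. Every KO library was below every WT library for 10 genes (11% of all genes) and above for 1 (10.6% of all genes). At an unadjusted p under 0.05, 13 were lower and 1 higher, where 8.86% and 7.27% of all genes were. DESeq2 called 9 collagen genes, and 2.79% of all genes.

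Col1a1 (chr11:94936224-94953042, plus strand, GRCm38.p6) had 0.74, 1.15 and 0.83 TPM in KO liver, against 1.81, 3.20 and 2.19 TPM in WT liver. Its groups did not overlap, and the log2 difference in CPM was -1.31 (SE 0.23, edgeR adjusted p = 0.0403). Col3a1 had 4.13, 6.84 and 4.17 TPM in KO liver, against 7.83, 15.3 and 10 TPM in WT liver. Col1a2 had 2.67, 4.21 and 2.68 TPM in KO liver, against 4.65, 7.72 and 5.6 TPM in WT liver. Neither Col3a1 nor Col1a2 overlapped between groups, and neither passed, with log2 differences in CPM of -1.03 (SE 0.25, edgeR adjusted p = 0.0991) and -0.82 (SE 0.21, edgeR adjusted p = 0.116). WT replicate 2 was the highest and KO replicate 2 the highest of its group for all 3 genes. Col27a1 went the other way without passing. It had 13.3, 15.4 and 10.99 TPM in KO liver, against 5.34, 11.8 and 12.3 TPM in WT liver, with WT replicate 1 far below the rest and a log2 difference in CPM of 0.52 (SE 0.30, edgeR adjusted p = 0.437).

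Type IV collagen had a lower mean in KO liver for 5 of 5 tested genes, of which Col4a3 passed. Col4a3 (chr1:82586921-82722059, plus strand, GRCm38.p6), a chain of the mature glomerular and alveolar basement membrane, had 0.04, 0.11 and 0.10 TPM in KO liver, against 0.52, 0.34 and 0.29 TPM in WT liver. Its log2 difference in CPM was -2.14 (SE 0.40, edgeR adjusted p = 0.0475), with at most 55 expected counts in a library. Its head-to-head partner Col4a4 had 0.13, 0.08 and 0.02 TPM in KO liver, against 0.29, 0.29 and 0.29 TPM in WT liver, with groups that did not overlap and a log2 difference in CPM of -1.71 (SE 0.41, edgeR adjusted p = 0.0960). Reads in the shared start of this pair cannot be told apart where strand is not used. Col4a2 had 1.55, 2.25 and 1.71 TPM in KO liver, against 2.88, 4.13 and 3.45 TPM in WT liver. Its KO libraries all lay below its WT libraries, at a log2 difference in CPM of -0.83 (SE 0.17, edgeR adjusted p = 0.0570). Type IV summed to 6.09 ± 1.09 TPM in KO liver and 10.6 ± 1.25 TPM in WT liver (SD, n = 3 each), without overlap (exact permutation test, two-sided, p = 0.1, the smallest possible, adjusted p = 0.36 over 72 comparisons).

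Both liver calls were close to the threshold. The edgeR adjusted p of Col1a1 was 0.106 without KO replicate 1, 0.0929 without KO replicate 3, 0.107 without WT replicate 2 and 0.0778 without WT replicate 3. That of Col4a3 lay between 0.0751 and 0.132 whichever library was left out. The count of 10 with all KO below all WT was 16 without KO replicate 2 and 18 without WT replicate 1 (15.5% and 16.1% of all genes).

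The chain that dominated liver differed little. Col18a1 had 173, 159 and 150.4 TPM in KO liver, against 178, 185 and 176 TPM in WT liver. The TPM groups did not overlap, but CPM did, and the log2 difference in CPM was -0.08 (SE 0.10, edgeR adjusted p = 0.732). It took 75.8% ± 3.98 of collagen TPM in KO liver together with Col15a1, and 71.0% ± 4.40 in WT liver (SD, n = 3 each). Fibril-associated chains split. Col14a1, which binds fibrils through decorin, had 7.22, 11.4 and 6.90 TPM in KO liver, against 11.7, 18.1 and 12.5 TPM in WT liver and a log2 difference in CPM of -0.64 (SE 0.21, edgeR adjusted p = 0.179). Col20a1, a related chain of unclear function, had 1.29, 1.37 and 1.35 TPM in KO liver, against 0.71, 0.82 and 1.0 TPM in WT liver. All KO libraries were above all WT libraries for Col20a1, the only collagen gene tested in liver of which this held, with a log2 difference in CPM of 0.71 (SE 0.15, edgeR adjusted p = 0.0738).

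**Figure D3:**
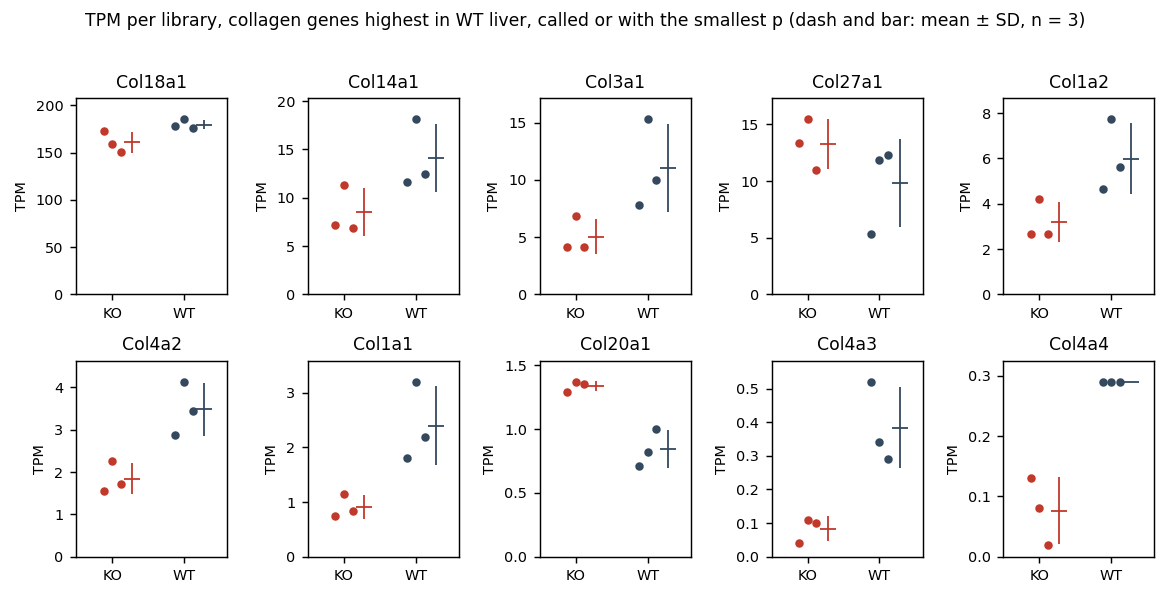
TPM in each liver library of the 10 collagen genes that passed or had the highest WT mean or the smallest p, KO left and WT right, with the mean and SD beside the points. Col1a1 runs from 0.74 to 1.15 TPM in KO liver and 1.81 to 3.20 TPM in WT liver, Col18a1 lies at 150.4 TPM or more in both, and Col20a1 is higher in KO.

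Stellate cell markers were lower beside the liver collagens. All 8 of 8 had a lower mean in KO with a median log2 difference of -0.62, and their summed level was 71.2 to 144 TPM in KO liver and 133 to 181 TPM in WT liver. Fibroblast markers had 6 of 7 tested lower (median -0.41), with sums of 142 to 210 TPM in KO liver and 205 to 293 TPM in WT liver. Lists of other cells were lower too, with 6 of 7 lymphocyte markers (median -0.48) and 6 of 8 pericyte and smooth muscle markers (median -0.36). Of the endothelial markers 8 of 10 were lower (median -0.14). Hepatocyte and macrophage marker medians were 0.15 and -0.04, and no stellate, fibroblast, hepatocyte or macrophage marker was at 0 in all liver libraries. The part of these cells in the collagen difference was not tested.

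In IAT most collagen genes were also lower in KO, with wide spread. Of the 37 collagen genes that passed the filter on low counts, 28 had a lower mean, where 48.3% of all 14097 genes did, and the median log2 difference in CPM was -0.49 beside 0.02 over all genes. Every KO library was below every WT library for 4 genes (9.65% of all genes) and above for 3 (8.81%). With edgeR 0 collagen genes and 0% of all genes passed, 4 collagen genes were lower and 4 higher at an unadjusted p under 0.05 (8.04% and 7.75% of all genes). DESeq2 called 6 collagen genes, and 7.11% of all genes. Without KO replicate 3, edgeR and DESeq2 called 0 collagen genes, where edgeR called 0% and DESeq2 1.69% of all genes. In that edgeR fit 29 of 38 were lower with a median of -0.43, 4 were lower at an unadjusted p under 0.05 (3.99% of all genes), 4 had all KO below all WT (10.2%) and 3 had all KO above (9.78%). With all 6 libraries, type IV had 6 of 6 tested genes lower, fibrillar types 8 of 10, type VI 4 of 6 and fibril-associated types 3 of 6. Multiplexins had 2 of 2 lower, network-forming types 2 of 2, transmembrane types 2 of 3 and anchoring and other types 1 of 2.

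The most abundant IAT chains overlapped between genotypes. Col3a1 had 424, 811 and 647 TPM in KO IAT, against 588, 993 and 1359 TPM in WT IAT. Col1a2 had 242, 364 and 306 TPM in KO IAT, against 295, 587 and 711 TPM in WT IAT. Col1a1 had 115, 189 and 156 TPM in KO IAT, against 150.4, 284 and 341 TPM in WT IAT. KO replicate 1 was the lowest library for all 3, and WT replicate 1 lay within the KO range. Their log2 differences in CPM were -0.71 (SE 0.46, edgeR adjusted p = 0.454) for Col3a1, -0.87 (SE 0.40, edgeR adjusted p = 0.344) for Col1a2 and -0.82 (SE 0.38, edgeR adjusted p = 0.347) for Col1a1. Col4a1 had 113, 295 and 214 TPM in KO IAT, against 220.5, 191 and 225 TPM in WT IAT, with KO libraries both lowest and highest, and a log2 difference in CPM of -0.09 (SE 0.40, edgeR adjusted p = 0.919). Col6a1 had 102, 151 and 128 TPM in KO IAT, against 125, 192 and 198 TPM in WT IAT and a log2 difference in CPM of -0.50 (SE 0.27, edgeR adjusted p = 0.396). Without KO replicate 3 the log2 differences of Col3a1, Col1a2, Col1a1, Col4a1 and Col6a1 were -0.69, -0.84, -0.80, -0.07 and -0.48, with edgeR adjusted p of 0.689 to 0.975.

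Less abundant chains gave the smallest p in IAT, in both directions. Col6a5, a type VI chain, had 1.36, 0.36 and 0.98 TPM in KO IAT, against 0.17, 0.22 and 0.14 TPM in WT IAT. Every KO library was above every WT library, at a log2 difference in CPM of 2.24 (SE 0.49, edgeR adjusted p = 0.218). Its TPM was highest in KO replicates 1 and 3, the libraries with lymphocyte transcripts. Col12a1, a fibril-associated chain of tendon and fascia, had 2.15, 2.13 and 1.81 TPM in KO IAT, against 1.25, 1.03 and 1.10 TPM in WT IAT, again without overlap, and a log2 difference in CPM of 0.81 (SE 0.19, edgeR adjusted p = 0.224). Col14a1 had 30.3, 11.4 and 21.9 TPM in KO IAT, against 35.4, 76.2 and 45.4 TPM in WT IAT. Its KO libraries were all below its WT libraries, as were those of a pair of type IV chains found in the mature basement membrane. Col4a5 had 2.23, 2.55 and 2.44 TPM in KO IAT, against 5.54, 4.25 and 3.12 TPM in WT IAT. Col4a4 had 0.27, 0.43 and 0.32 TPM in KO IAT, against 0.62, 1.88 and 1.19 TPM in WT IAT. For Col14a1, Col4a5 and Col4a4 the log2 differences in CPM were -1.41 (SE 0.40, edgeR adjusted p = 0.235), -0.91 (SE 0.26, edgeR adjusted p = 0.235) and -1.94 (SE 0.46, edgeR adjusted p = 0.224) in that order. Without KO replicate 3, Col6a5, Col12a1, Col14a1, Col4a5 and Col4a4 stood at 2.18, 0.90, -1.42, -0.89 and -1.87, each with an edgeR adjusted p of 0.669.

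IAT markers differed widely between libraries. Fibroblast markers summed to 1752 to 2028 TPM in KO IAT and 2628 to 4821 TPM in WT IAT, with 9 of 10 lower and a median log2 difference of -1.16. Macrophage markers summed to 1499 to 3126 TPM in KO IAT and 2298 to 8100 TPM in WT IAT, with 10 of 10 lower and a median of -1.38. Mammary epithelium markers summed to 399.6 to 547 TPM in KO IAT and 510.5 to 868 TPM in WT IAT, with 8 of 8 tested lower. The fits that leave out KO replicate 1 or 2 keep replicate 3 beside a library it resembles. The 4 genes with all KO below all WT became 13 without KO replicate 2 (26.6% of all genes), 14 without WT replicate 1 (16.5%), 6 without KO replicate 1 (12.6%) or WT replicate 2 (11.8%) and 7 without WT replicate 3 (14.8%). A total of 5 collagen genes passed without KO replicate 2, the KO library with few lymphocyte transcripts, where 12.1% of all genes did, and the collagen median was -0.27 without KO replicate 1 and -0.31 without WT replicate 3. The 4 genes lower at an unadjusted p under 0.05 were 12 without KO replicate 2 and 10 without WT replicate 1 (14.1% and 8.89% of all genes). With both WT libraries rich in muscle transcripts left out, the median was -0.49 and 26 of 39 were lower. With both KO libraries rich in lymphocyte transcripts left out, the median was -0.14 and 24 of 39 were lower, and the single remaining library was taken to vary like the others. The part of lymphocyte, muscle, macrophage, mammary or fibroblast RNA in these values was not tested.

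Brain collagens showed no common direction. Of the 42 collagen genes that passed the filter on low counts, 17 had a lower mean in KO, where 50.4% of all 14385 genes did, and the median log2 difference in CPM was 0.09, with a median near 0 over all genes. Every KO library was below every WT library for 3 genes and above for 3, where 5.99% and 6.53% of all genes were. With edgeR and DESeq2 0 collagen genes passed, where edgeR called 0.0487% and DESeq2 0.289% of all genes. At an unadjusted p under 0.05 in edgeR, 2 were lower and 2 higher (3.14% and 3.43% of all genes). The count of 3 with all KO below all WT was 6 without KO replicate 1 and 8 without WT replicate 2 (11.9% and 12.5% of all genes), and without WT replicate 2 the median was -0.04. The count of 3 above was 6 without KO replicate 1, 7 without KO replicate 2 or WT replicate 1 and 6 without WT replicate 3 (11.6%, 13.1%, 10.2% and 10.5% of all genes). The 2 lower at an unadjusted p under 0.05 were 4 without KO replicate 1 or WT replicate 2 (3.2% and 4.42%). With all libraries, type VI had 5 of 5 tested genes lower and transmembrane types 3 of 4, while type IV had 5 of 6 higher. Fibrillar types had 7 of 11 higher, fibril-associated types 7 of 9, multiplexins 2 of 2, anchoring and other types 2 of 3 and network-forming types 1 of 2.

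The leading brain chains overlapped between genotypes. Col6a1 had 36.6, 61.4 and 61.9 TPM in KO brain, against 140.3, 53.1 and 53.6 TPM in WT brain, and its mean in WT brain rested on replicate 1. Col4a2 had 24.02, 36.5 and 29.03 TPM in KO brain, against 28.1, 26.9 and 31.2 TPM in WT brain. Col4a1 had 20.1, 26.7 and 23.2 TPM in KO brain, against 21.7, 18.9 and 25.2 TPM in WT brain. Neither type IV chain differed beyond the spread, with log2 differences in CPM of 0.07 (SE 0.15, edgeR adjusted p = 0.946) and 0.10 (SE 0.14, edgeR adjusted p = 0.901). Col6a1 gave -0.61 (SE 0.39, edgeR adjusted p = 0.789) on the log2 CPM scale, and Col6a2, which had 11.1, 15.4 and 16.98 TPM in KO brain, against 20.4, 12.2 and 18.2 TPM in WT brain, gave -0.22 (SE 0.22, edgeR adjusted p = 0.860). Col25a1 had 27.8, 17.05 and 9.36 TPM in KO brain, against 31.97, 19.3 and 27.6 TPM in WT brain and a log2 difference in CPM of -0.52 (SE 0.35, edgeR adjusted p = 0.789).

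The smallest p in brain belonged to minor chains. Col17a1, the transmembrane collagen of hemidesmosomes, had 0.22, 0.17 and 0.14 TPM in KO brain, against 0.83, 0.57 and 0.30 TPM in WT brain. Col6a5 had 0.10, 0.25 and 0.08 TPM in KO brain, against 0.70, 0.32 and 0.42 TPM in WT brain. Both were below WT in every KO library at under 1 TPM, with log2 differences in CPM of -1.65 (SE 0.46, edgeR adjusted p = 0.717) and -1.71 (SE 0.50, edgeR adjusted p = 0.717). Col16a1, a fibril-associated chain, had 14.95, 13.9 and 14.9 TPM in KO brain, against 11.6, 10.3 and 13.2 TPM in WT brain. Col26a1 had 7.83, 6.86 and 13.5 TPM in KO brain, against 7.07, 4.78 and 5.93 TPM in WT brain. Both had KO above WT in every library for CPM, with log2 differences of 0.32 (SE 0.11, edgeR adjusted p = 0.749) and 0.71 (SE 0.27, edgeR adjusted p = 0.749). Col5a1 had 17.1, 10.8 and 30.7 TPM in KO brain, against 7.07, 9.21 and 15.4 TPM in WT brain, where KO replicate 3 was far above the rest, and a log2 difference in CPM of 0.90 (SE 0.40, edgeR adjusted p = 0.749). Choroid plexus markers, highest in WT replicate 3, had 9 of 10 lower in KO (median -1.14). So did meninges and perivascular fibroblast markers (9 of 10, median -0.14) and macrophage markers (9 of 10, median -0.12). Pericyte and smooth muscle markers had 8 of 9 lower (median -0.11), fibroblast markers 3 of 8 and astrocyte and oligodendrocyte markers 0 of 8. The part of these cells in the collagen values was not tested.

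**Figure D4:**
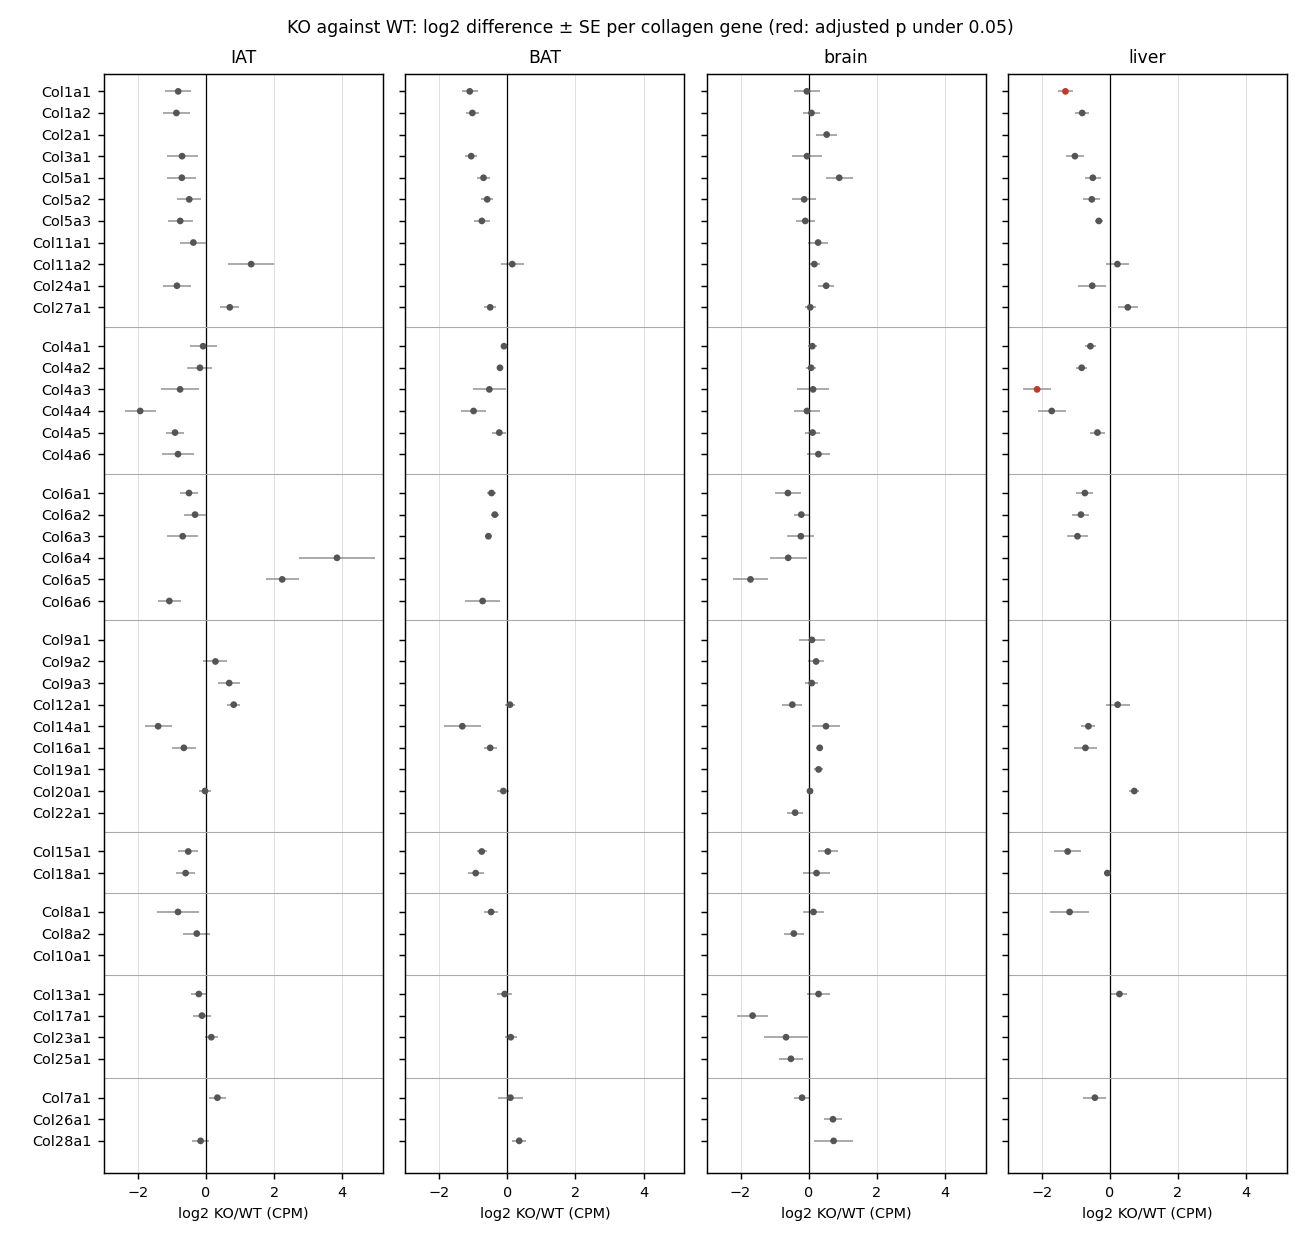
Log2 difference in CPM with its SE for every collagen gene tested, KO against WT, in 4 panels by tissue, with classes separated by lines and red marking the genes that passed. Points lean left of 0 in BAT and liver, where the medians were -0.51 and -0.61, and surround 0 in brain; the red points are Col1a1 and Col4a3 in liver. The IAT panel includes KO replicate 3.

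**Figure D5:**
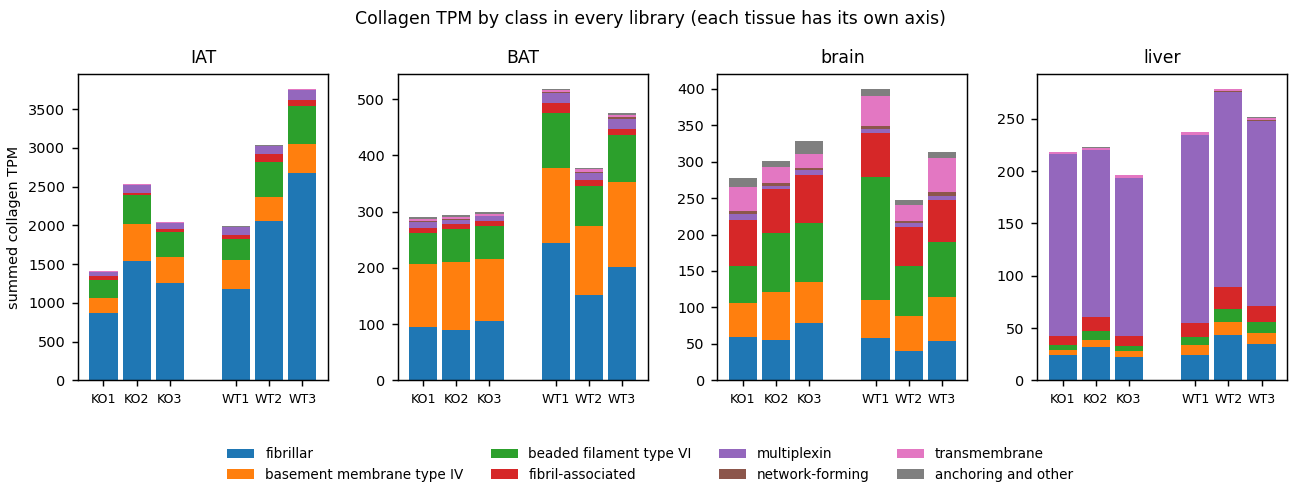
Summed collagen TPM of every library, stacked by class, KO bars left of WT bars in each tissue and a separate axis per tissue. Fibrillar chains fill most of each IAT bar, multiplexins most of each liver bar, and the 3 KO bars of BAT end at 290.5 to 300.2 TPM against 378 to 518 TPM for WT.

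The KO effect was also compared between tissues in a single edgeR fit of all 24 libraries. Of 43 collagen genes tested for an interaction of genotype with tissue, 0 passed, where 0.421% of all genes did, and 13 had an unadjusted p under 0.05, where 18.9% of all genes did. A DESeq2 likelihood ratio test called 2, and 7.7% of all genes. The smallest p belonged to Col20a1, whose log2 CPM difference was 0.71 in liver and -0.03 in IAT, -0.12 in BAT and 0.04 in brain (interaction adjusted p = 0.0945, and 0.176 without IAT KO replicate 3). Without IAT KO replicate 3, 0 passed. Without IAT KO replicate 2, 5 passed, where 18.1% of all genes did. A difference between tissues in the KO effect on a collagen gene was therefore not shown in the fit of all libraries.

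Genes that make, cross-link, bind and degrade collagen were read beside the chains, over 7 lists. In BAT 0 of 73 tested list members passed edgeR, where 0.54% of all genes did, and in liver 4 of 65 did, where 1.11% of all genes did. In liver P4ha2, a subunit of the prolyl hydroxylase that stabilises the helix, had 13.6, 15.3 and 13.5 CPM in KO liver, against 7.40, 7.79 and 9.55 CPM in WT liver. It rose, with a log2 difference of 0.78 (SE 0.13, edgeR adjusted p = 0.0288). In the same liver list 10 of 14 genes were higher. Fmod, a fibril-binding proteoglycan, had 2.39, 2.13 and 1.53 CPM in KO liver, against 4.51, 6.24 and 4.19 CPM in WT liver, and it fell, with a log2 difference of -1.31 (SE 0.24, edgeR adjusted p = 0.0422). All 6 of 6 proteoglycans tested in liver were lower. The proteoglycan list shares Dcn and Lum with the fibroblast marker list, so the counts of these lists are not independent in any tissue. Timp2, an inhibitor of the metalloproteinases that the degradation list also holds, had 11.2, 12.3 and 10.1 CPM in KO liver, against 18.4, 24.05 and 19.6 CPM in WT liver. It fell too, with a log2 difference of -0.89 (SE 0.13, edgeR adjusted p = 0.0162). Tgfbr2, the type II receptor for TGF-beta, the main inducer of fibrillar collagen, had 14.6, 10.9 and 11.98 CPM in KO liver, against 21.5, 22.7 and 19.1 CPM in WT liver. It fell, with a log2 difference of -0.75 (SE 0.13, edgeR adjusted p = 0.0311), and all 16 of 16 members of its list were lower with a median of -0.49. These 4 calls lay close to the threshold. The edgeR adjusted p of Fmod was 0.0632 to 0.132 whichever library was left out. That of P4ha2 was 0.0602 to 0.115 without any 1 library other than WT replicate 3, and that of Tgfbr2 was 0.0508 to 0.117 without any 1 library other than KO replicate 1. Timp2 had 0.0596 without KO replicate 1 and 0.0569 without WT replicate 2.

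The remaining lists had no call. For folding and secretion the smallest p in liver was that of Pcolce, the procollagen proteinase enhancer, at -0.70 (SE 0.20, edgeR adjusted p = 0.143), for cross-linking that of Loxl2 at -0.74 (SE 0.21, edgeR adjusted p = 0.139), and for receptors that of Ddr1 at -0.86 (SE 0.27, edgeR adjusted p = 0.161), all as log2 differences. In BAT the hydroxylase list had 10 of 14 lower and P4ha2 at 0.57 (SE 0.12, edgeR adjusted p = 0.0832). The folding list had 7 of 12 lower and Serpinh1, the collagen chaperone, at 0.33 (SE 0.12, edgeR adjusted p = 0.216). Lox, the lysyl oxidase that cross-links fibrils, stood at 0.76 (SE 0.18, edgeR adjusted p = 0.116) within a list of 2 of 4 lower. Lum, a proteoglycan, was at -0.76 (SE 0.18, edgeR adjusted p = 0.107) with 6 of 6 lower, Ddr2, a collagen receptor, at -0.73 (SE 0.32, edgeR adjusted p = 0.269) with 8 of 10 lower, Mmp14, a membrane collagenase, at -1.30 (SE 0.27, edgeR adjusted p = 0.0835) with 9 of 11 lower, and Tgfbr3 at -0.19 (SE 0.07, edgeR adjusted p = 0.227) with 11 of 16 lower.

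In IAT every list again had 0 calls, where edgeR called 0% of all genes. With no gene called, these counts do not set the lists apart from other genes. P3h4 was at -0.71 (SE 0.27, edgeR adjusted p = 0.298) with 13 of 15 hydroxylase genes lower, Pcolce2 at -1.74 (SE 0.26, edgeR adjusted p = 0.165) with 13 of 13 folding genes lower, and Loxl4 at -1.80 (SE 0.28, edgeR adjusted p = 0.165) with 5 of 5 cross-linking genes lower. Aspn was at -0.71 (SE 0.14, edgeR adjusted p = 0.211) with 4 of 7 proteoglycans lower, Ddr2 at -1.25 (SE 0.18, edgeR adjusted p = 0.165) with 7 of 10 receptors lower, Mmp14 at -1.03 (SE 0.18, edgeR adjusted p = 0.175) with 10 of 12 degradation genes lower, and Ltbp1 at -0.96 (SE 0.20, edgeR adjusted p = 0.214) with 7 of 16 TGF-beta genes lower. Without KO replicate 3 each of these 7 genes had an edgeR adjusted p of 0.669, and 13, 12, 5, 4, 7, 10 and 6 members of those lists were lower in that order. In brain no list member passed either, where edgeR called 0.0487% of all genes. The genes with the smallest p there were Ppib at -0.19 (SE 0.09, edgeR adjusted p = 0.750), Bmp1 at 0.29 (SE 0.11, edgeR adjusted p = 0.749), Loxl1 at -0.91 (SE 0.30, edgeR adjusted p = 0.749), Dcn at -1.15 (SE 0.73, edgeR adjusted p = 0.789), Adgrg1 at -0.41 (SE 0.20, edgeR adjusted p = 0.750), Fap at 0.60 (SE 0.29, edgeR adjusted p = 0.752) and Ccn2 at -0.39 (SE 0.15, edgeR adjusted p = 0.749), with 10 of 15, 8 of 13, 4 of 4, 5 of 7, 6 of 9, 5 of 9 and 8 of 16 list members lower in that order.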

How the data were processed

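RNA from 4 tissues of KO and WT mice gave 24 libraries, 3 per group. The authors deposited 1 table of 19015 genes, per the file headers with expected counts (estimated reads per gene, not normalised) and TPM (normalised for length within each library) for each sample. The submitters' processing notes list RSEM (1.3.1), Bowtie2 (2.3.4.3) and DESeq2 (1.4.5), with GRCm38.p6 as the build. The annotation, strand use and filters were not given in the sources used here. A further 48 per-sample columns were not used.

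Expected counts, of which 8.59% were not whole, were rounded. Each tissue was fitted on its 6 libraries in edgeR 4.0.16 (R 4.3.3) with TMM factors, filterByExpr and the quasi-likelihood F-test, Benjamini-Hochberg adjusted over all genes tested and called under 0.05. The SE is the log2 difference divided by the square root of F. WT tissues were compared in 1 fit of 12 libraries, and tissue by genotype in 1 fit of 24. TPM served for levels between genes and for the order of WT tissues, and CPM for genotypes. The edgeR tests between WT tissues ran on scaled counts, so they can differ from the order in TPM. Col1a1 averaged 2.59 TPM in WT brain and 2.40 TPM in WT liver. Its log2 difference in CPM of brain against liver was -1.83 (edgeR adjusted p = 0.00166). Totals per library ranged from 12327459 to 18257788, so genes with few counts carry wide error. In data simulated on these libraries 97 of 100 genes changed 4-fold and 82 of 100 changed 2-fold were recovered for BAT, and 100 and 89 for liver, but 86 and 21 for IAT with its libraries taken as independent (brain 93 and 79). Pairs of replicates differed beyond sampling noise, but KO replicate 3 of IAT lay at the midpoint of KO replicates 1 and 2 and is not taken as independent, so IAT results are also given without it.

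The collagen genes, classes, pathway lists and marker lists were chosen with earlier results of these data known. Values per library were given for the 5 genes with the highest WT mean, the called genes and the 5 with the smallest p in each tissue, and for list members the called genes or the 1 with the smallest p. Other genes are named as examples after their values were seen. A result on a marker gene is not reported here. Alternatives were RLE factors, other filters, DESeq2 1.42.0, limma 3.58.1 on log2 TPM, a replicate block and each library left out.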

Additional observations from a re-analysis of the deposited data

Results flagged for a closer look

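For 4 collagen genes every KO library, in CPM, lay on one side of every WT library in one tissue and on the opposite side in another. The share of all genes with such opposite sides was not counted, so the 4 cannot be set against a general rate. In single tissues 5.99% (brain, below) to 14.3% (BAT, above) of all genes lay wholly on a given side. The difference between the tissues of each pair was not tested on its own, and the interaction test over 4 tissues in edgeR passed for none of them, with all libraries or without KO replicate 3 of IAT, which lay at the midpoint of KO replicates 1 and 2. Col27a1, a fibrillar chain, had a log2 difference in CPM of 0.70 in IAT and -0.51 in BAT (interaction adjusted p = 0.213, and 0.313 without that library). Col6a5 had 2.24 in IAT and -1.71 in brain (interaction adjusted p = 0.108, and 0.209 without that library), at levels between 0.08 and 1.36 TPM, and its highest IAT libraries were the KO libraries with lymphocyte transcripts. Col16a1, a fibril-associated chain, had -0.51 in BAT and 0.32 in brain (interaction adjusted p = 0.297). Col15a1, a multiplexin, had -0.75 in BAT and 0.56 in brain (interaction adjusted p = 0.173).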

How the results depend on the processing

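For 77 values of single genes in a tissue, 1071 of 1195 alternative values kept their direction and side of the threshold. Most of the 77 were not called in the main fit, where staying uncalled counts as kept. Of the other alternatives 48 lost a call, 65 gained one and 11 turned direction. The 48 all belonged to the called liver genes, from 4 of 15 alternatives for Timp2 to 10 of 13 for Col4a3. Other genes given only by their levels were not refitted. Direction turned for Col4a1 in IAT without KO replicate 1 (0.23) and without both KO libraries rich in lymphocyte transcripts (0.52), and without KO replicate 2 for Col4a1 (-0.013) and Col4a2 (-0.11) in brain; with a library left out these 3 spanned -0.52 to 0.23, -0.013 to 0.21 and -0.11 to 0.20. Col20a1 in IAT turned to 0.042, 0.055 and 0.042 in the limma fits and spanned -0.12 to 0.015 with a library left out; in brain it spanned -0.029 to 0.071 and Dcn -1.61 to 0.38, turning without KO replicate 3 and WT replicate 3. The number of collagen genes called moved with the tool and the libraries. In IAT, 0 became 6 with DESeq2 (7.11% of all genes) and 6 with all 24 libraries in 1 fit. It was 0 to 5 with a library left out, where 0 to 1760 of all genes were called. DESeq2 without KO replicate 3 gave 0 (1.69% of all genes, collagen median -0.36). In BAT, 0 became 8 with DESeq2 (3.68% of all genes). In liver, 2 became 1 with a filter of 1 CPM in 3 libraries, 9 with DESeq2 (2.79% of all genes) and 1 with all 24 libraries in 1 fit. It was 0 with each limma fit on log2 TPM, and 0 to 3 with a library left out, where 58 to 103 of all genes were called. Genes whose effect differed between tissues numbered 0, against 2 with the DESeq2 likelihood ratio test (7.7% of all genes). With a library left out they numbered 0 to 5, with 5 without IAT KO replicate 2 (18.1% of all genes). The count over WT tissues was 42 to 44. Medians kept their sign in IAT, BAT and liver. The IAT median of -0.49 was -0.30 on log2(TPM + 1), -0.11 on that scale without a filter, -0.64 to -0.27 with a library left out and -0.14 without both KO libraries rich in lymphocyte transcripts. On log2(TPM + 1) without a filter the medians were -0.12 in BAT and -0.13 in liver; this scale shrinks low genes by construction. With a library left out, the liver median was -0.87 to -0.51 and the BAT median -0.58 to -0.32. The brain median ran from -0.04 to 0.14. The number of BAT collagen genes with every KO library below every WT library was 16 to 17 with a library left out (16% to 20.4% of all genes). It was 15 with all libraries (11.3% of all genes). With fewer libraries the groups separate more easily, so a count that does not fall is no sign of stability. This check, like those on counts of lower genes, was added after seeing the data. Whether replicate numbers pair KO with WT libraries is not settled here. Correlations of the deviations of KO and WT libraries with the same number were -0.249 to 0.0488 in IAT and -0.191 to -0.185 in BAT. They were 0.0415 to 0.403 in brain and -0.0775 to 0.225 in liver. These are few and have no reference spread, so they cannot exclude a pairing. With the replicate number as a block, 8 collagen genes were called in liver and 0 in the other tissues. Over all genes the number called in liver ran from 58 to 367 over the alternatives, where the main fit called 137. Shares over all genes are not given here for the fits with the block, of all 24 libraries, with the CPM filter or in limma. Their collagen counts can therefore not be set against the general rate. Causes of these moves were not tested. Chains under 1 TPM rest on few counts.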
